A study of Mus musculus with 2 samples.

Results

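Thrombospondins and genes of the tendon lineage were followed through the cell types of the healing femoral fracture. The 8 genes were the 5 thrombospondins Thbs1, Thbs2, Thbs3, Thbs4 and Comp (also known as thrombospondin 5), the tendon membrane protein gene Tnmd, and the tendon transcription factor genes Scx and Mkx. They were chosen by symbol, and each matched 1 row among the 32285 genes of both count matrices. The mice were wild-type C57BL/6J males of 12 weeks, with a transverse fracture of the mid-femur that was stabilised by a needle in the marrow cavity. Callus, the repair tissue around the fracture, was digested into single cells and read as unique molecular identifiers (UMIs, 1 count per captured RNA molecule) from the 3′ ends of transcripts. The design covered callus at 10 days (n = 5 mice) and 20 days (n = 5 mice) after fracture, with no treatment. The 2 libraries, MGJ and MGJ2, carried no day in their labels, and their barcodes do not tell mice apart, so each library was described on its own and no test between days or samples was possible.

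Thrombospondins are secreted glycoproteins that bind calcium, collagens and cell surface receptors. Thbs1 and Thbs2 form trimers, carry properdin-like repeats that bind CD36, and restrain the growth of blood vessels, while Thbs3, Thbs4 and Comp lack these repeats and form pentamers that are found in cartilage, tendon and muscle matrix. Scx, a basic helix-loop-helix factor that binds E-boxes, and Mkx, a homeobox factor, direct the formation and upkeep of tendon, and Tnmd is a late marker of tendon and ligament cells. A callus heals through cartilage, in which chondrocytes enlarge (hypertrophy), switch on the collagen gene Col10a1 and are then replaced by bone.

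Library MGJ held 14295 barcodes with a median of 5026 UMIs, and library MGJ2 held 8009 with a median of 4952. After removal of barcodes with under 200 genes, over 20% mitochondrial UMIs or a doublet call, 13087 and 7606 cells remained. The doublet calls took 2.77% and 2.56% of the tested barcodes where 10.8% and 6.24% would be expected at this loading, so doublets remained. The libraries shared 19 barcode sequences, which were treated as separate cells. Of the classes named by markers, 17 held at least 50 cells in MGJ and 12 did in MGJ2. All intervals are 95% intervals and cover counting error only, since cells of 1 library are not replicates.

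The fibroblast-like class held 933 cells of MGJ with a median of 14693 UMIs and expressed 9 of 9 fibroblast markers at 10 or more CPM (UMIs per 1000000 UMIs of the class). Its fibroblast markers summed to 26109 CPM, led by Col3a1, against 2150 CPM for the chondrocyte markers. The chondrocyte-like class held 2560 cells of MGJ with a median of 21094 UMIs, and its chondrocyte markers summed to 92565 CPM. The 81 osteoblast-like cells had osteoblast markers at 39395 CPM, of which Col1a1 gave 36289 CPM, and chondrocyte markers also reached 9553 CPM there. All 8 osteoblast markers stood at 10 or more CPM in these cells. In fibroblast-like cells the same list summed to 15447 CPM, but 15432 CPM came from Col1a1, the only 1 of the 8 at 10 or more CPM. In MGJ2 the chondrocyte-like class held 134 cells, the osteoblast-like class 16 cells and the fibroblast-like class 7 cells, so the last pair is given as values only. The members were kept out of the marker lists and out of the genes used for clustering.

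The 8 genes fell into distinct patterns over the classes of MGJ. Thbs2, Thbs3, Thbs4, Tnmd and Scx were highest in fibroblast-like cells, Comp in chondrocyte-like cells and Thbs1 in monocyte-like cells. Mkx was low throughout and was at like levels in osteoblast-like and fibroblast-like cells. Values are levels in CPM, not scaled by transcript length, so each gene is compared over classes and not with the other genes.

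**Figure D1:**
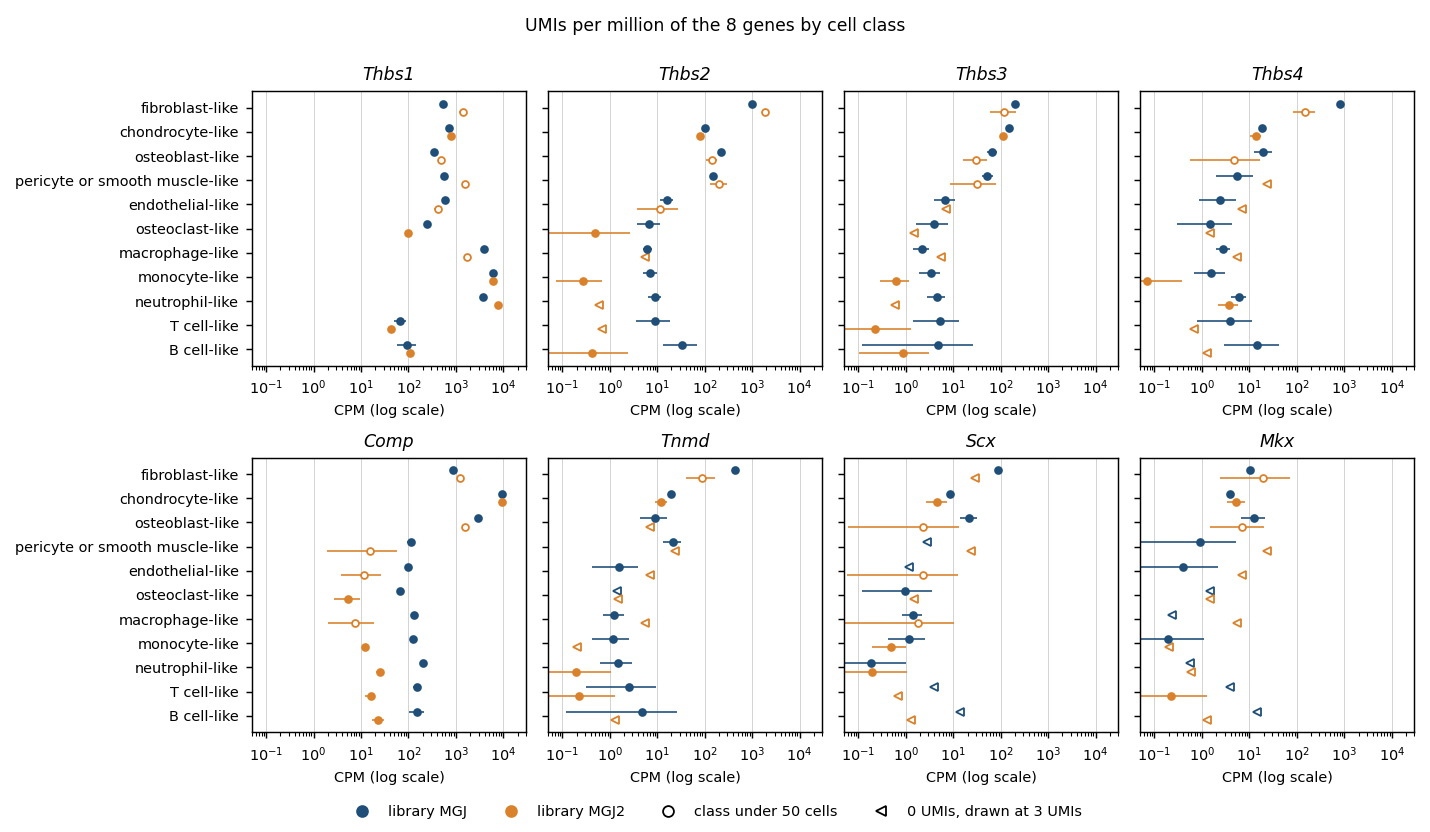
Level of each member (CPM, log axis, one panel per gene) by cell class in libraries MGJ and MGJ2, with exact Poisson 95% intervals. Thbs4 and Tnmd stand at 813.1 and 446.3 in the fibroblast-like cells of MGJ, Comp at 9452 in the chondrocyte-like cells, and Thbs1 is higher in monocyte-like, macrophage-like and neutrophil-like cells than in the skeletal classes.

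Thbs1 (ENSMUSG00000040152, chr2:118111876-118127133, plus strand, GRCm38) had its highest level in monocyte-like cells of MGJ, 5961 CPM. Macrophage-like cells held 3820 CPM and neutrophil-like cells 3761 CPM, with a ratio of 1.02 (0.999 to 1.03), so these neighbours in the order did not differ beyond counting error. Chondrocyte-like cells had 708.7 CPM, fibroblast-like cells 526.9 CPM and osteoblast-like cells 343.3 CPM, all below these 3 classes. Dendritic-like cells at 405.8 CPM and osteoclast-like cells at 242.6 CPM were also below the chondrocyte-like level. Thbs1 was thus the one member whose highest levels lay outside the skeletal classes. In MGJ2 neutrophil-like cells were highest at 7725 CPM, followed by monocyte-like cells at 6090 CPM, and chondrocyte-like cells had 806 CPM. The 7 fibroblast-like cells of MGJ2 gave 141 UMIs of Thbs1 among 102025 UMIs. Unlike in MGJ, this level was above that of the chondrocyte-like cells. Macrophage-like cells held 26.6% of all Thbs1 UMIs of MGJ, and chondrocyte-like cells, the most abundant named class, held 20.7%. How much free RNA from myeloid cells added to the Thbs1 counts of the skeletal classes was not tested. An antisense gene, Gm29233, shares 208 exon bases with Thbs1.

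Thbs2 (ENSMUSG00000023885, chr17:14665500-14694235, minus strand), the other trimeric member, was a gene of the fibroblast-like cells, with 995.2 CPM in MGJ. Osteoblast-like cells followed at 220.6 CPM, pericyte or smooth muscle-like cells at 151.7 CPM and chondrocyte-like cells at 104.1 CPM, and each of these neighbours differed beyond counting error. Neutrophil-like cells had 8.88 CPM. In MGJ2 the level was 81.2 CPM in chondrocyte-like cells and 0 in neutrophil-like cells, where 3 UMIs would have been 0.583 CPM. The 7 fibroblast-like cells of MGJ2 gave 193 UMIs of Thbs2, or 1892 CPM (1634 to 2178).

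Thbs3 (ENSMUSG00000028047, chr3:89215180-89226837, plus strand) was shared by the fibroblast-like and chondrocyte-like cells. Its levels in MGJ were 203.8 CPM in fibroblast-like, 148.8 CPM in chondrocyte-like, 64.9 CPM in osteoblast-like and 52.4 CPM in pericyte or smooth muscle-like cells. The last pair did not differ beyond counting error, with a ratio of 1.24 (0.864 to 1.78). Neutrophil-like cells had 4.44 CPM. In MGJ2 chondrocyte-like cells had 111.8 CPM and neutrophil-like cells 0. The gene shares 318 exon bases with Mtx1 on the opposite strand, which was counted at 17.7 CPM in fibroblast-like and 28.2 CPM in chondrocyte-like cells of MGJ.

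Thbs4 (ENSMUSG00000021702, chr13:92751590-92794818, minus strand) was concentrated in the fibroblast-like cells, which held 70.8% of all its UMIs in MGJ while making up 7.13% of the cells. Their level was 813.1 CPM. Osteoblast-like cells had 19.6 CPM and chondrocyte-like cells 18.5 CPM, which did not differ beyond counting error (ratio 1.06, 0.660 to 1.61). Neutrophil-like cells were at 5.92 CPM. A further 22.2% of the Thbs4 UMIs lay in cells without a class name. In MGJ2 the level was 13.5 CPM in chondrocyte-like cells and 147 CPM (82.3 to 242.5) in the 7 fibroblast-like cells.

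Comp (ENSMUSG00000031849, chr8:70373558-70382066, plus strand), the cartilage oligomeric matrix protein gene, was, unlike Thbs3 and Thbs4, highest in the chondrocyte-like class. Chondrocyte-like cells were highest in both libraries, at 9452 CPM in MGJ and 9278 CPM in MGJ2, and held 86.8% of its UMIs in MGJ. Osteoblast-like cells of MGJ followed at 2929 CPM and fibroblast-like cells at 863.5 CPM, and each step differed beyond counting error. Neutrophil-like cells of MGJ still held 205.5 CPM, against 25.1 CPM in MGJ2. For each 1000 UMIs of the cartilage collagen gene Col2a1, Comp gave 171.3 UMIs in chondrocyte-like cells and between 190.1 and 335.8 UMIs in the 14 classes of MGJ outside the fibroblast-like, osteoblast-like and chondrocyte-like cells. In fibroblast-like cells the same ratio was 1300 UMIs and in osteoblast-like cells 538.1 UMIs, both above that range.

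Tnmd (ENSMUSG00000031250, chrX:133850980-133865577, plus strand) followed Thbs4. Fibroblast-like cells of MGJ had 446.3 CPM and held 69.4% of its UMIs. Pericyte or smooth muscle-like cells had 21.1 CPM and chondrocyte-like cells 19.8 CPM, with a ratio of 1.07 (0.674 to 1.61) that did not differ beyond counting error. Osteoblast-like cells had 8.89 CPM from 10 UMIs and neutrophil-like cells 1.48 CPM from 8 UMIs. In MGJ2, chondrocyte-like cells had 11.97 CPM and the 7 fibroblast-like cells 88.2 CPM (40.3 to 167.5) from 9 UMIs.

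Both transcription factor genes gave few UMIs in most classes. Scx (ENSMUSG00000034161, chr15:76457452-76459458, plus strand) reached 89.4 CPM in fibroblast-like cells of MGJ, which held 55.6% of its UMIs. Osteoblast-like cells had 21.3 CPM and chondrocyte-like cells 8.36 CPM, and dendritic-like cells stood between them at 11.1 CPM from 8 UMIs without a difference from either beyond counting error. Neutrophil-like cells gave 1 UMI. Mkx (ENSMUSG00000061013, chr18:6934518-7004780, minus strand) had 12.4 CPM in osteoblast-like cells from 14 UMIs and 10.46 CPM in fibroblast-like cells from 149 UMIs, a ratio of 1.19 (0.635 to 2.06) that did not differ beyond counting error. Chondrocyte-like cells had 3.88 CPM, and neutrophil-like cells gave 0 UMIs of Mkx. In MGJ2, chondrocyte-like cells had 4.58 CPM of Scx from 18 UMIs and 5.35 CPM of Mkx from 21 UMIs. The 7 fibroblast-like cells of MGJ2 gave 0 UMIs of Scx and 2 UMIs of Mkx among 102025 UMIs, so high Scx was not seen there. Scx overlaps Bop1 on the opposite strand with 0 shared exon bases, and Mkx shares 201 exon bases with AC148004.2 on its own strand, so the Mkx counts are less certain.

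Set directly against the chondrocyte-like cells of MGJ, fibroblast-like cells had 4 of the 8 genes at least 4-fold higher and 1 at least 4-fold lower. Of all 12552 genes with at least 50 UMIs in either class, 6.05% were at least 4-fold higher and 5.7% at least 4-fold lower. The median ratio was 6.13 over the members and 1.20 over all genes. Thbs4 had the widest ratio at 43.9 (41.2 to 46.9), followed by Tnmd at 22.5 (21.1 to 24.1). Scx followed at 10.7 (9.60 to 11.9) and Thbs2 at 9.56 (9.27 to 9.86). These 4 genes span both trimeric and pentameric thrombospondins, a membrane protein and a transcription factor. Mkx had a ratio of 2.70 (2.17 to 3.34) and Thbs3 one of 1.37 (1.31 to 1.43). Thbs1 was lower, at 0.744 (0.725 to 0.762). Comp was lower in fibroblast-like cells at 0.0914 (0.0897 to 0.0930).

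**Figure D2:**
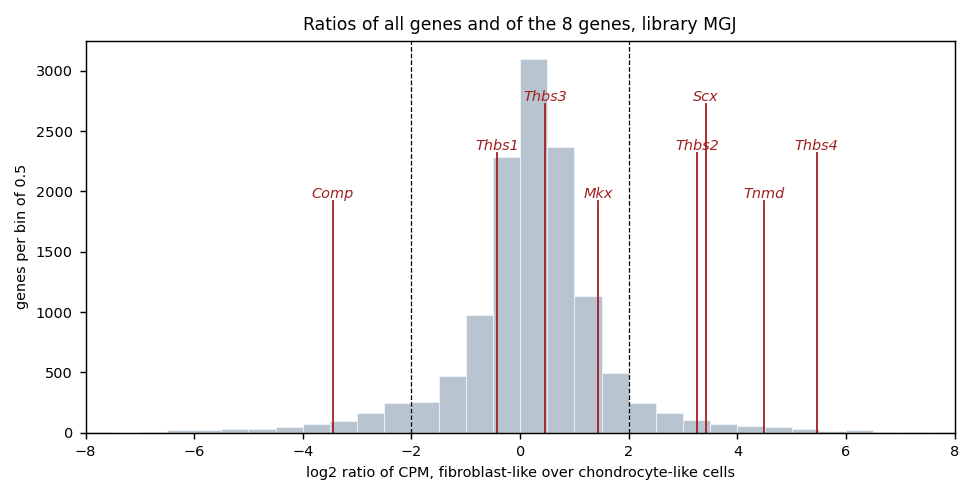
Histogram of the log2 ratio of CPM in fibroblast-like over chondrocyte-like cells of library MGJ for the 12552 genes tested (x axis, log2 ratio; y axis, number of genes), with the 8 members marked. Thbs4, Tnmd, Scx and Thbs2 lie beyond the 4-fold line on the fibroblast side and Comp beyond it on the chondrocyte side.

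Other tendon-associated genes were spread in the same contrast. Of the 12 listed genes, 7 were at least 4-fold higher in fibroblast-like cells and 1 was at least 4-fold lower, with a median ratio of 5.96. Kera (keratocan, a small leucine-rich proteoglycan) had a ratio of 149.9 (103.8 to 224.8), Angptl7 one of 42.0 (21.3 to 94.6) and the fibril-associated collagen gene Col14a1 one of 22.9 (21.1 to 24.9). Cnmd, the cartilage relative of Tnmd, had the reverse order at 0.0153 (0.0140 to 0.0167). Tnmd and Cnmd, which encode related membrane proteins, were thus split between the 2 classes. Of the 12 thrombospondin receptors and binding partners, 1 was at least 4-fold higher in fibroblast-like cells, the integrin gene Itgb3 at 4.09 (3.58 to 4.67). The heparan sulfate proteoglycan gene Sdc4 at 0.209 (0.202 to 0.215) and the cartilage matrilin gene Matn1 at 0.00535 (0.00339 to 0.00803) were at least 4-fold lower, and the median of the list was 1.85.

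Osteoblast-like cells of MGJ were set against the chondrocyte-like cells in the same way. None of the 8 members passed 4-fold in either direction, against 2.22% of 12347 genes higher and 2.2% lower. The count is near the share over all genes, so it does not set the members apart. Mkx had a ratio of 3.21 (1.73 to 5.51), Scx one of 2.55 (1.62 to 3.85) and Thbs2 one of 2.12 (1.86 to 2.41). The members below 1 were Thbs1 at 0.484 (0.437 to 0.536), Tnmd at 0.449 (0.215 to 0.829), Thbs3 at 0.436 (0.342 to 0.549) and Comp at 0.310 (0.299 to 0.321). When every cell took the class of its best marker score, 476 cells were osteoblast-like and Thbs4 and Tnmd passed 4-fold at 4.49 and 5.39. With 81 cells, the class gave between 10 UMIs of Tnmd and 3294 UMIs of Comp.

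Shares of cells with a UMI gave the same order once each cell was thinned to 2000 UMIs, which left out 71 fibroblast-like and 43 chondrocyte-like cells of MGJ. Thbs4 was seen in 39.1% (35.8 to 42.4) of fibroblast-like and 3.18% (2.53 to 3.94) of chondrocyte-like cells. Tnmd was seen in 26.5% (23.5 to 29.5) and 2.94% (2.32 to 3.68). In neutrophil-like cells, taken as a low reference for free RNA, the shares were 0.888% for Thbs4 and 0.178% for Tnmd. Their median depth was 1970 UMIs, so 1174 of the 2300 cells were left out of these shares. Scx was seen in 13.8% of fibroblast-like, 1.11% of chondrocyte-like and 0 of 1126 neutrophil-like cells, where 3 cells would have been 0.266%. At this depth Thbs4, Tnmd and Scx were each seen in a minority of the fibroblast-like cells. Without thinning, 55.2% of fibroblast-like cells had a Thbs4 UMI, 35.9% a Tnmd UMI and 36.8% a Scx UMI.

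Thbs2 was more widespread, with 69.0% (65.8 to 72.1) of fibroblast-like and 16.9% (15.4 to 18.4) of chondrocyte-like cells, against 1.42% of neutrophil-like cells. Thbs3 was seen in 32.7% and 24.7% of the first pair of classes. Comp was seen in 98.3% of chondrocyte-like and 58.4% of fibroblast-like cells, but also in 27.2% of neutrophil-like cells. Thbs1 was seen in 78.9% of neutrophil-like cells, above its 60.3% in chondrocyte-like and 43.7% in fibroblast-like cells. Neutrophil-like cells are therefore no low reference for Thbs1. Mkx was seen in 1.51% (0.805 to 2.56) of fibroblast-like and 0.675% (0.394 to 1.08) of chondrocyte-like cells, whose intervals overlapped.

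**Figure D3:**
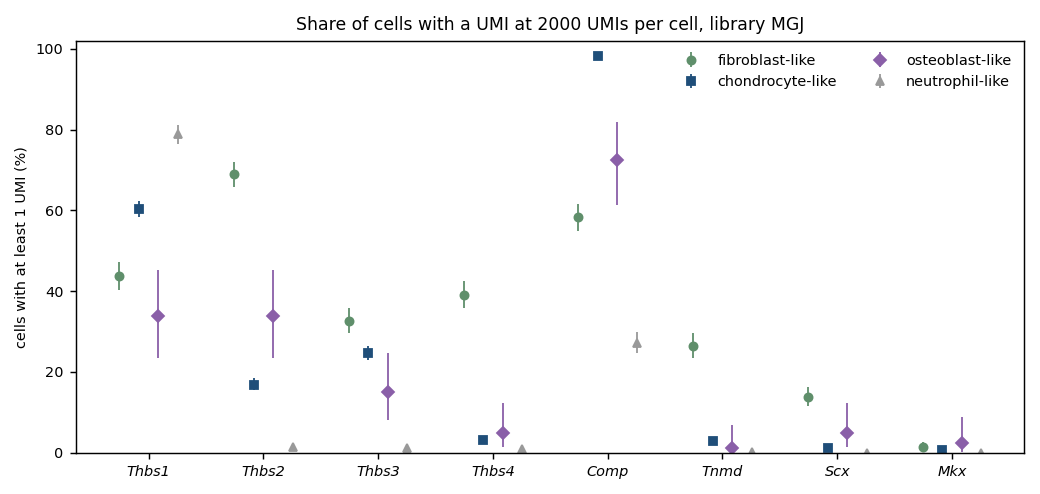
Percent of cells with at least 1 UMI of each member after thinning each cell to 2000 UMIs, by class in library MGJ, with exact 95% intervals. Thbs4, Tnmd, Scx and Thbs2 are seen in a larger share of fibroblast-like than of chondrocyte-like cells. Comp is seen in nearly all chondrocyte-like cells, and Thbs1 in a larger share of neutrophil-like than of chondrocyte-like or fibroblast-like cells.

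Within the fibroblast-like cells of MGJ the tendon genes were unevenly spread. The 94 cells with the most UMIs of a gene held 75.4% of the Tnmd UMIs, 65.6% of the Thbs4 UMIs and 62.9% of the Scx UMIs. For Thbs2 and Thbs3 they held 37.0% and 32.9%, for Thbs1 and Comp 54.4% and 49.2%, and for Mkx, with 149 UMIs in all, 92.6%. A single cell held up to 285 UMIs of Thbs4 and up to 147 UMIs of Tnmd, while the median cell had 0 UMIs of Tnmd. The UMIs of Tnmd, Thbs4 and Scx were thus more concentrated than those of Thbs2 and Thbs3, with Thbs1 and Comp between. Cells were ranked by UMIs and not by level, so cell depth and the number of UMIs of a gene enter these shares.

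Tnmd and Thbs4 were often seen in the same fibroblast-like cell. After thinning, 228 of 862 cells had a Tnmd UMI, and 161 of these (70.6%) also had a Thbs4 UMI, against 176 of the 634 cells (27.8%) without Tnmd. Scx was seen in 28.5% of cells with Tnmd and 8.52% of cells without it. Comp was seen in 77.2% and 51.6% of the same groups of cells, and Thbs2 in 78.5% and 65.6%. Thbs1 differed least, with 45.6% of cells with Tnmd and 43.1% of cells without. These cells share 1 library, so the shares are a description.

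The base sequence before the transcription start of Thbs4 and Tnmd is shown because these 2 genes were often found together and stood highest in the same cells. The sequences are RefSeq promoters on GRCm38.p6, matched for 4 of the 8 members, and run 5′ to 3′ on the strand of the gene. Capitals mark an E-box (CANNTG on either strand, which reads the same on both), the motif that Scx-type factors bind. The Thbs4 sequence is chr13:92794819-92795068 on the minus strand, and the Tnmd sequence is chrX:133850758-133850979 on the plus strand.
Thbs4: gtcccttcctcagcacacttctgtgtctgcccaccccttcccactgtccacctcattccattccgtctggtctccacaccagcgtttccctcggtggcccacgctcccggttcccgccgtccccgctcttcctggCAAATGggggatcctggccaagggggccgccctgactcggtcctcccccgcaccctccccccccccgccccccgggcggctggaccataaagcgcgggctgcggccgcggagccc
Tnmd: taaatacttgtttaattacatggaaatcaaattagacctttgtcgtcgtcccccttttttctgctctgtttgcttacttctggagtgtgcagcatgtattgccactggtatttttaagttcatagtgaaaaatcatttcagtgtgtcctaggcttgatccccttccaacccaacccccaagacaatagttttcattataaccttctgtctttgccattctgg
The Thbs4 promoter held 1 E-box, CAAATG, from 115 to 110 bases before the start, and 70.8% of its bases were G or C. The Tnmd promoter held 0 E-boxes in its 250 bases and had 38.4% G or C. Thbs2 and Thbs3 held 1 E-box each, CACTTG and CAGATG. For Thbs2 alone of the 4, the bases checked after the RefSeq start were not found in a GENCODE transcript of the gene, so its window is less certain. E-boxes are frequent, with at least 1 in 66.2% of all 32851 RefSeq promoters of the same length, so these matches say only which letters stand in each window.

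Sub-clusters made without the members differed widely in the tendon genes. Of 5 sub-clusters, ordered by Tnmd, the first held 216 cells and was led by Kera, Cilp2, Chad, Fos and Klf2. The second held 194 cells and was led by Gm26917, Mmp9 and Ibsp. The third held 228 cells and was led by Acp5, Ccl5 and Pclaf. The fourth held 82 cells, led by Ank, S100a4 and Jam2, and the fifth held 206 cells, led by Saa3, Csf3 and Mmp3, genes of inflammation. Tnmd fell through this order by construction, from 1301 CPM in the first through 510.4, 321.9 and 65.6 CPM to 36.7 CPM in the fifth.

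Thbs4 had 1781 CPM in the Kera-led sub-cluster and 433.4, 793.9, 433.4 and 387.5 CPM in the others in the same order. Comp had 1616 CPM there and 1229, 600, 765 and 468.2 CPM in the others. Of the pentameric genes, Thbs4 and Comp were therefore highest where Tnmd was highest. Thbs3 had 259.6 CPM there, close to its highest level of 263.2 CPM in the fourth sub-cluster. Its ratio over the other fibroblast-like cells was 1.367 (1.255 to 1.486). Scx was 191.2 CPM in the second sub-cluster, which had the lowest median depth and the highest mitochondrial share (a median of 6.09%), followed by the first at 147.6 CPM, the fourth at 99.8 CPM and the third at 76.6 CPM. In the fifth it was 2.11 CPM (0.847 to 4.34) from 7 UMIs in 206 cells. Tnmd and Scx were thus both lowest in the Saa3-led cells. Thbs2 ranged from 555.1 CPM in the fifth to 1477 CPM in the second sub-cluster, and Thbs3 from 136.9 CPM in the fifth to 263.2 CPM in the fourth. Thbs1 was 638.5 CPM in the Saa3-led cells against 466.4 to 538 CPM in the other sub-clusters. Mkx had 24.6 CPM in the Kera-led cells and between 4.79 and 8.42 CPM elsewhere.

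**Figure D4:**
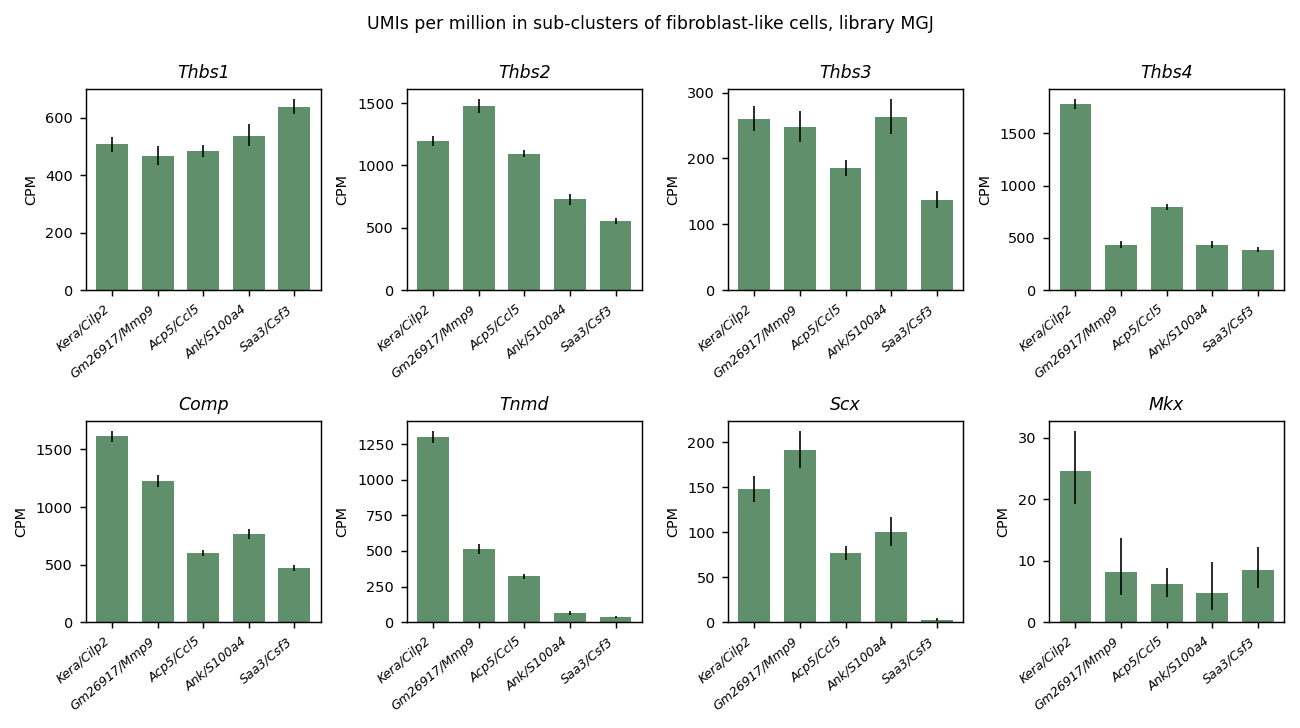
Level of each member (CPM, linear axis) in the 5 sub-clusters of fibroblast-like cells of library MGJ, ordered by Tnmd and named by leading genes, with exact Poisson 95% intervals. Thbs4, Comp and Mkx are highest in the Kera-led sub-cluster, and Scx is at 2.11 in the Saa3-led one.

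Compared with the remaining fibroblast-like cells, the Kera-led sub-cluster had 5.58 times the Tnmd level, which is the gene that chose it. Its ratio was 3.56 (2.54 to 4.98) for Mkx, 3.11 (3 to 3.23) for Thbs4, 2.39 (2.30 to 2.48) for Comp and 1.97 (1.75 to 2.22) for Scx. Ranked with 10 CPM added to both levels, the leading genes were Kera at 14.8, the cartilage intermediate layer protein gene Cilp2 at 12.2, the chondroadherin gene Chad at 11.7, and the transcription factor genes Fos at 5.97 and Klf2 at 5.94. Angptl7, at a low level (88 UMIs against 11), had a ratio of 32.1 (17.1 to 66.7). Tnc (tenascin C) went the other way, at 0.481. Prg4 (lubricin) had 0.418 here but 1.44 (1.29 to 1.60) in the highest sub-cluster at resolution 1. Klf2 and Fos were at that resolution among the leading genes of another sub-cluster, of 104 cells led by Hspa1a. These values describe cells grouped by their own expression and carry no test. Median depth ran from 5383 to 20985 UMIs per cell over the sub-clusters, and neutrophil markers summed to between 290.6 and 1083 CPM, highest in the Acp5-led one. The part of depth and free RNA in these differences was not tested. At resolution 1 the highest sub-cluster held 72 cells, with 4222 CPM of Thbs4, 2609 CPM of Tnmd, 291 CPM of Scx and 53.0 CPM of Mkx. At that resolution Scx and Thbs1 changed their order, with Scx at 160.1 CPM in the next highest sub-cluster, led by Mmp9, and Thbs1 at 681 CPM in the highest Tnmd sub-cluster against 612.1 CPM in the Saa3-led one.

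Chondrocyte-like cells were then divided by their own Col10a1 level, the mark of hypertrophy, into low (under 1000 CPM), moderate and high (10000 CPM or more). These ranges held 1693, 352 and 515 cells in MGJ and 55, 26 and 53 cells in MGJ2. They are cut from a continuous level, and 121 and 158 cells of MGJ lay within 1.5-fold of the lower and the upper cut, as did 11 and 9 cells of MGJ2. From low to high in MGJ, 3 of the 8 members were at least 2-fold lower and 0 at least 2-fold higher, against 10.3% of 11462 genes lower and 6.95% higher. The median ratio was 0.630 over the members and 0.965 over all genes.

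Tnmd was 26.0 CPM in the low, 14.5 CPM in the moderate and 3.27 CPM in the high cells of MGJ, a ratio of high to low of 0.126 (0.0870 to 0.176). Thbs4 went from 23.0 through 16.1 to 5.603 CPM, with a ratio of 0.244 (0.185 to 0.317). The Thbs4 level of the high cells was close to that of neutrophil-like cells, 5.92 CPM. With doublet calls kept and the cells clustered again the Thbs4 ratio was 0.858, no longer past 2-fold. The neutrophil-like level exceeded that of the high cells, so after its subtraction they were set to the level of 3 UMIs. The resulting ratio of 0.0164 reflects that setting and is no measured fold. Thbs3 went from 176.9 through 128.0 to 71.5 CPM, with a ratio of 0.404 (0.375 to 0.436). Thbs2, at 124.2, 69.9 and 63.9 CPM, had a ratio of 0.514 (0.474 to 0.558), just inside the 2-fold limit. These 4 genes were lower in each step of Col10a1, although for Thbs2 the moderate and high intervals overlapped. The other 4 were not: Comp had 8920, 11812 and 9405 CPM with a ratio of 1.054 (1.047 to 1.062), and Thbs1 had 694.2, 889.4 and 618.2 CPM with a ratio of 0.891 (0.867 to 0.915). Scx had a ratio of 0.745 (0.573 to 0.958) and Mkx one of 1.12 (0.787 to 1.57). The fibroblast markers moved as well, with a median sum of 4733 CPM per cell in the low, 3702 CPM in the moderate and 3133 CPM in the high range, and their part in these differences was not tested.

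**Figure D5:**
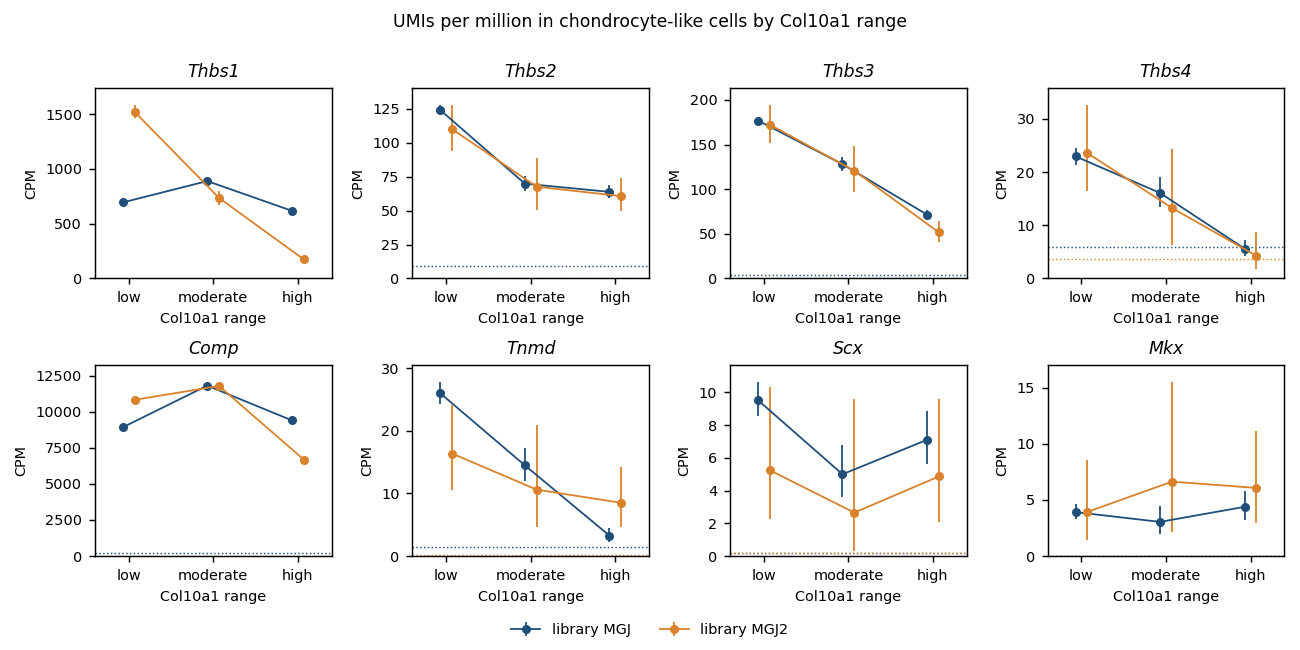
Level of each member (CPM, linear axis) in chondrocyte-like cells of low, moderate and high Col10a1, in libraries MGJ and MGJ2, with exact Poisson 95% intervals. Thbs3 is lower at each step in both libraries, Tnmd and Thbs4 are lower at each step in MGJ, Comp stays within 8920 to 11812 in MGJ, and Thbs1 drops from 1522 to 174.9 in MGJ2.

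In MGJ2, 4 of the 8 members had enough UMIs, and 2 of these were at least 2-fold lower and 0 at least 2-fold higher in Col10a1-high cells, against 10.3% of 4121 genes lower and 7.79% higher. Thbs3 went from 172.3 through 120.7 to 51.6 CPM, a ratio of 0.2996 (0.232 to 0.384). Thbs1 went from 1522 through 735 to 174.9 CPM, a ratio of 0.115 (0.101 to 0.1299). Thbs3 was thus past 2-fold in both libraries, while Thbs1 was past it in MGJ2 alone. The difference between the libraries was not tested. The 6 cells with the most Thbs1 held 47.5% of its UMIs among the 55 low cells of MGJ2, and the neutrophil marker sum had a median of 157.6 CPM in the low and 160.5 CPM in the high cells. Other marker sums were lower in the high cells of MGJ2, with medians of 76050 and 42241 CPM in low and high cells for chondrocyte markers, 4177 and 3214 CPM for fibroblast markers and 2635 and 1405 CPM for osteoblast markers. Their part in the differences was not tested. Thbs2 had a ratio of 0.552 (0.426 to 0.711) and Comp one of 0.618 (0.603 to 0.633). Thbs4 gave 36 UMIs in the low and 7 in the high cells, Tnmd 25 and 14, Scx 8 and 8, and Mkx 6 and 10, which is too few for the count above.

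Of the tendon-associated genes with enough UMIs in MGJ, 7 of 10 were at least 2-fold lower in Col10a1-high cells, among them Col14a1 at 0.153 (0.101 to 0.223), Cilp2 at 0.171 (0.103 to 0.268), Tnc at 0.218 (0.192 to 0.247) and Col12a1 at 0.229 (0.218 to 0.241). The zinc finger factor gene Egr2 was at least 2-fold higher at 2.32 (2.03 to 2.66). In MGJ2, 3 of 6 were at least 2-fold lower, Col12a1 at 0.0988 (0.0831 to 0.117), Cnmd at 0.142 (0.131 to 0.154) and Fmod at 0.196 (0.179 to 0.215). Among the receptors and binding partners, Itgb3 was at least 2-fold higher in both libraries, at 3.45 (2.82 to 4.22) in MGJ and 2.96 (1.66 to 5.55) in MGJ2. In MGJ it was the only one of 11 past 2-fold. In MGJ2, Tgfb1 was also higher at 2.13 (1.80 to 2.54), and the calreticulin gene Calr was lower at 0.453 (0.412 to 0.497).

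Among the 8 sub-clusters of chondrocyte-like cells of MGJ, the Col10a1-led one of 660 cells had 6.13 CPM of Tnmd and 9.31 CPM of Thbs4. Tnmd was 37.4 CPM in 302 cells led by Id1 and Fos, 36.7 CPM in 115 cycling cells led by Ube2c and Top2a, and 29.6 CPM in 650 cells led by Penk. Thbs4 was highest in the cycling cells at 38.6 CPM (32.1 to 45.9). Even the highest of these levels lay below every fibroblast-like sub-cluster for Thbs4. For Tnmd the lowest fibroblast-like sub-cluster, at 36.7 CPM (30.5 to 43.8), was level with them. The chondrocyte-like sub-cluster lowest in Col10a1 held 41 cells led by Ifi203 and Tnfsf11 and had 8.36 CPM of Thbs4 and 79.4 CPM of Thbs3. Set against these 41 cells, the Col10a1-led sub-cluster had ratios of 1.11 for Thbs4 and 1.04 for Thbs3, so the lower levels of these genes in Col10a1-high cells did not hold for this choice of cells.

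The genes whose pattern over the 17 classes of MGJ was most like that of each member were found by Pearson's r of log2(CPM + 10) among 14676 genes. These r values describe points that share 1 library and rest mostly on the few classes high in each member, skeletal ones for all members but Thbs1. For Thbs4 they were Brinp3 (r = 0.987), Crabp2 and Irx1, and for Tnmd Clip4 (r = 0.984), Pax9 and Col14a1. Thbs4 and Tnmd themselves had r = 0.953. Scx was most like Prtg (r = 0.969), Svep1 and Spon1, and Mkx most like Ptprd (r = 0.994), 2700069I18Rik and Mme. Thbs2 was most like Col3a1 (r = 0.983), Col5a1 and Ltbp3, which encode extracellular matrix proteins, and Thbs3 most like Hoxc8 (r = 0.989), Gm32618 and Eef1akmt3. Comp was most like the cartilage collagen gene Col11a1 (r = 0.988), Gm42788 and Omd. Thbs1 was most like the urokinase receptor gene Plaur (r = 0.951), Gpr84 and Hmox1, and had r = -0.08 with both Thbs2 and Tnmd. In the 12 classes of MGJ2, Plaur was again first for Thbs1 (r = 0.959), before Prdx5 and Slpi, and Col1a2 (r = 0.999), Col1a1 and Col2a1 were first for Comp. For Thbs2 (Kcna5, Thrb, Eps8l2), Thbs3 (Nog, Epha3, Parva), Thbs4 (Pcdh19, Phldb2, Wwtr1) and Tnmd (4631405J19Rik, Osr2, Dhx58os), r in MGJ2 rests on the chondrocyte-like class, the only class with over 20 UMIs of any of these 4 genes. For Comp, r in MGJ2 rests mostly on the same class, which held 36432 of its 40493 UMIs. No fibroblast-like or osteoblast-like class was among the 12.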

How the data were processed

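Single-cell UMI counts were deposited by the authors as 2 filtered matrices, which the file headers attribute to Cell Ranger 4.0.0, on GRCm38 per the submitters' processing notes, which also name Seurat. They were used as raw counts. Free RNA was not removed, so classes that do not express a gene can hold its UMIs. Barcodes with under 200 genes, over 20% mitochondrial UMIs or a Scrublet score over 0.3 were removed. That threshold was set after the automatic one called 0 doublets in MGJ. Both libraries were clustered together (scanpy 1.11.5, 2000 variable genes without the members, 30 components, 15 neighbours, Leiden resolution 1, leidenalg 0.10.2) and named from 23 marker lists, hence the ending "-like". The rules for splitting mixed clusters and for setting aside sub-clusters led by markers of other classes were made after the leading genes were seen. Fibroblast-like and chondrocyte-like cells were sub-clustered at resolution 0.5.

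Levels are summed UMIs over all UMIs of a class in CPM (per 1000000) with exact Poisson intervals. Ratios have exact conditional binomial intervals, and shares exact Clopper-Pearson intervals. Contrasts used genes with at least 50 UMIs in either class, in classes of at least 50 cells. Because the labels give neither library a day, no p-value or SD was computed. Depth was 135304426 UMIs in MGJ and 61130834 UMIs in MGJ2. Positions came from GENCODE M21, which matched 32235 of 32285 gene identifiers. The members, the 12 tendon-associated genes and the 12 thrombospondin receptors and binding partners were chosen with earlier results of these data known. Named beyond them were the up to 5 genes of each list farthest from 1 in a contrast, the 3 genes most like each member, the 5 leading genes of the Tnmd-highest sub-cluster (ranked with 10 CPM added) and markers. The ratio code was checked on simulated counts. Python 3.11.15, numpy 2.4.6, scipy 1.17.1, pandas 2.3.3 and matplotlib 3.10.9 were used.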

Additional observations from a re-analysis of the deposited data

How the results depend on the processing

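No paired analysis was possible because the labels put neither library in a group. The count of 4 members at least 4-fold higher and 1 at least 4-fold lower in fibroblast-like than in chondrocyte-like cells was the same under all 11 alternatives, with ratios of 30.3 to 64.1 for Thbs4, 11.8 to 24.9 for Tnmd, 8.44 to 10.99 for Thbs2, 8.15 to 11.1 for Scx and 0.0712 to 0.239 for Comp. The lowest Tnmd ratio, 11.8, was that without the sub-cluster highest in Tnmd, an alternative chosen after seeing the data, as was the keeping of cells set aside. Of 93 counts of members under alternatives, 89 stayed within the limit of 1.5 times. Between osteoblast-like and chondrocyte-like cells, clustering at resolution 0.5 gave 1 member higher (Mkx at 4.01) and 1 lower (Comp at 0.213), and giving every cell the class of its best marker score gave 2 higher (Thbs4 at 4.49 and Tnmd at 5.39, with 476 osteoblast-like cells). The count of members lower in Col10a1-high cells of MGJ2 was 1 after the neutrophil-like level was subtracted, when Thbs1, which is higher in neutrophil-like cells, could not be given a value. Between the chondrocyte-like sub-clusters highest and lowest in Col10a1 in MGJ, the ratio of high to low turned for Thbs3 to 1.039 and for Thbs4 to 1.114, with 41 cells in the lowest. The other alternatives gave Thbs4 ratios from 0.0164, where the high cells were set to 3 UMIs after subtraction, to 0.858. The class with the highest level was the same in all 9 alternative groupings for 6 members, in 8 for Thbs1 and in 6 for Mkx. The high to low ratio of Tnmd was between 0.0729 and 0.339 under all 11 alternatives. The sub-cluster alternative was not run in MGJ2, which had 1 sub-cluster of chondrocyte-like cells. The causes were not tested where no construction is named. Few cells limited Scx and Mkx in MGJ2, with 18 and 21 UMIs in 134 chondrocyte-like cells, and the 7 fibroblast-like cells there allow no contrast.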

Other observations

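Cells set aside from the fibroblast-like class also held the members. In MGJ, 289 cells led by Saa3, Mmp10 and Fabp4 had 911.1 CPM of Thbs2 and 296.9 CPM of Thbs4, with 32.2 CPM of Tnmd, 15.1 CPM of Scx and 12.96 CPM of Mkx from 72 UMIs. Another 234 cells led by the cartilage genes Ucma, Scrg1 and Cnmd had 4317 CPM of Comp beside 283.5 CPM of Thbs4, 220.4 CPM of Tnmd and 65.6 CPM of Scx, between the fibroblast-like and chondrocyte-like levels for each of these 4 genes. A further 77 cells led by Ccl4, Ccl3 and Wfdc17 had 586.6 CPM of Thbs4, 400.4 CPM of Tnmd and 1823 CPM of Comp.

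In MGJ2, neutrophil-like cells held 19 UMIs of Thbs4 in 13 of 1945 cells, against 1 UMI of Tnmd and 0 UMIs of Thbs2 and Thbs3. Monocyte-like cells of the same library, with more UMIs in all, held 1 UMI of Thbs4, a ratio of the levels of 53.9 (8.56 to 2239).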
